A study of Mus musculus with 6 samples.

Results

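The genes described here make and control cholesterol and fatty acids, and they were read in mouse aortic smooth muscle cells (MASMCs) with and without deletion of Pdk4. The 33 genes were listed by name according to their role, with earlier results of these data known, and 31 of them carried that name in a table of 41721 genes. They comprise 5 regulators, 8 genes of the mevalonate arm, 11 of the squalene and sterol arm, 1 sterol carrier, 6 genes of the fatty acid arm and 2 efflux pumps. RNA of MASMCs from the abdominal aortas of Pdk4fl/fl and Pdk4SMKO mice was sequenced in 6 libraries, with 3 libraries per genotype. Pdk4 encodes pyruvate dehydrogenase kinase 4, which restrains the entry of pyruvate carbon into mitochondrial acetyl-CoA. Both genotypes carried the floxed Pdk4 allele, and per the study's methods both received tamoxifen for 5 days, so that the genotypes differ in the Myh11-Cre transgene. This Cre is driven by the promoter of a smooth muscle myosin gene and is Y-linked, and all mice were therefore male. The cells came from mice aged 10 weeks on a C57BL/6J background, were grown in culture to passages 4 to 8, and were treated with Ang II, which the methods give as 1 μM for 48 h. No culture without Ang II was analysed here. The study's legends give 3 biological replicates per genotype. The labels do not say whether the 3 libraries of a genotype came from separate mice, so p-values measure the spread between these libraries, whatever its source.

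Cholesterol is built from acetyl-CoA through mevalonate, isoprenoids, squalene and lanosterol. When sterols run low in the endoplasmic reticulum, SCAP carries the SREBP proteins to the Golgi, where they are cut into active transcription factors, and the INSIG proteins hold SCAP back when sterols are plentiful. SREBP-2 mainly drives the genes of sterol synthesis and SREBP-1 those of fatty acid synthesis. The liver X receptors respond to oxysterols and switch on the efflux pumps ABCA1 and ABCG1, so that synthesis and export are usually set against each other. In the arterial wall, smooth muscle cells take up, make and export cholesterol, and sterol-loaded cells can take on features of foam cells.

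Library totals ran from 16526044 to 22481670 counts, of which the members took 74627 to 113590. At this depth 3 counts, taken as the floor, corresponded to 0.132 to 0.227 CPM (a gene's counts relative to the TMM-scaled library total), which covers counting error alone. Pdk4 had 570, 639 and 421 counts in Pdk4fl/fl and 110, 182 and 141 in Pdk4SMKO libraries (log2 fold change -2.34, standard error 0.22, adjusted p = 4.49e-06). Of the smooth muscle markers, Acta2 stood at 233 ± 40.8 and 701 ± 74.5 CPM (SD, n = 3), whereas Myh11 had at most 10 and Des at most 5 counts in any Pdk4fl/fl library. Of 8 such markers 4 were higher (Acta2, Myh11, Des and Lmod1) and 3 lower (Tagln, Cnn1 and Smtn) in Pdk4SMKO cells. Myh11 and Des passed the filter through the Pdk4SMKO libraries alone. The summed level of the 8 was 785 to 811 CPM against 723 to 954 CPM. Markers of other cells differed too. Mesothelial markers summed to 74.2 to 99.99 CPM in Pdk4fl/fl and 723 to 1325 CPM in Pdk4SMKO libraries, with 7 of 7 tested genes higher. Of these, Krt18, Upk1b, Upk3b, Wt1 and Lrrn4 had at most 15 counts in any Pdk4fl/fl library and passed the filter through the Pdk4SMKO libraries alone. Fibroblast markers summed to 626 to 855 and 5152 to 7054 CPM, most of it Col1a1. Col1a1, Dcn and Lum (at most 6 counts in any Pdk4fl/fl library) were higher. Lum passed the filter through the Pdk4SMKO libraries alone. Dpt was lower (log2 fold change -1.02), and Pdgfra and Pi16 were not called. Proliferation genes summed to 910.3 to 933 and 332 to 509 CPM, with 3 of 6 lower, and endothelial markers to 14.1 to 23.7 and 2.84 to 5.58 CPM. Of 6 tested macrophage markers 5 were higher. C1qa, C1qb, Adgre1 and Tyrobp were at 0 in every Pdk4fl/fl library and highest in Pdk4SMKO replicate 1. Csf1r had at most 4 counts in any Pdk4fl/fl library. All 5 passed the filter through the Pdk4SMKO libraries alone, so that higher was the only direction open to them. Cd68, which made up most of the list's sum in Pdk4fl/fl cells, was lower, from 31.2 ± 8.78 to 4.29 ± 2.18 CPM (SD, n = 3). The list summed to 21.4 to 38.0 CPM in Pdk4fl/fl and 9.71 to 30.5 CPM in Pdk4SMKO libraries. The part of these differences in the results was not tested.

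Of the 18 tested enzymes of sterol synthesis 14 were lower in Pdk4SMKO than in Pdk4fl/fl cells, whereas the squalene epoxidase Sqle, the regulators Scap and Insig2, the desaturase Scd2 and the efflux pump Abca1 were higher. To be called, a gene needed a 2-fold difference or more together with an adjusted p below 0.05. Of the 30 members that could be tested, 17 were lower, 5 were higher and 8 were not called. Across all 14085 genes tested, 26.5% were lower and 32.8% were higher by this rule, and 59.3% were called in either direction. The median log2 fold change of the 30 members was -1.22, against 0.12 over all genes tested. Without the limit on the fold change, 18 members were lower and 6 higher, where 37.1% and 42.0% of all genes were, 79.1% in either direction. In 25 of the 30 members the libraries of the genotypes did not overlap in CPM, beside 81.8% of all genes tested. As these are bulk libraries, fewer cells that transcribe a gene and less of its RNA per cell cannot be told apart. With scaling by library size alone, 10 members were lower and 6 higher, and the median of all genes moved to 0.72. As a change of scaling shifts all genes by nearly the same amount, the members' median relative to that of all genes is set by construction to be alike, and was -1.34 with TMM factors.

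**Figure D1:**
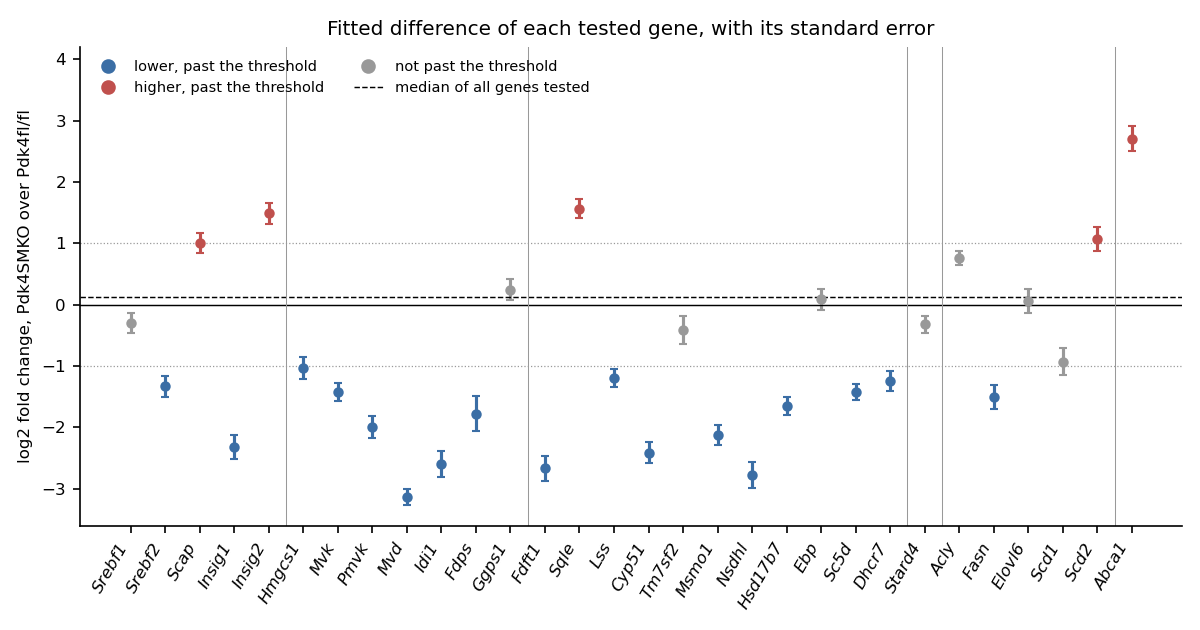
Each point is the fitted log2 fold change of a tested member (Pdk4SMKO over Pdk4fl/fl, y axis) with its standard error, in order of role along the x axis, with vertical lines between the roles and a dashed line at the median of all genes tested, 0.12. Of the 30 points, 17 lie below -1 in blue, from Mvd at -3.13 to Hmgcs1 at -1.03, and 5 lie above 1 in red, up to Abca1 at 2.71.

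To show the sequence in front of members that changed together, promoters were taken from RefSeq (GRCm38.p6), which held 26 of the 33 members with 34 promoters. Fdps, Fdft1, Sqle, Stard4, Scd1, Scd2 and Abcg1 had no entry. The 250 bases before each start were searched on both strands for the NF-Y box CCAAT, which is the site of a factor known to work beside SREBP, and for the sterol regulatory element TCACNCCAC. The strongly lowered mevalonate gene Mvd (chr8:122443423-122443672, minus strand), the sterol enzyme Nsdhl (chrX:72918271-72918520, plus strand) and the regulator Insig1 (chr5:28071162-28071411, plus strand) are shown beside Abca1 (chr4:53159896-53160145, minus strand), which moved the other way, each written 5′ to 3′ up to the base before the start and with NF-Y boxes of either strand in capitals. The last line shows the 30 bases around the sterol regulatory element of Hmgcs1 (chr13:119690204-119690233, plus strand), with the element in capitals.
Mvd: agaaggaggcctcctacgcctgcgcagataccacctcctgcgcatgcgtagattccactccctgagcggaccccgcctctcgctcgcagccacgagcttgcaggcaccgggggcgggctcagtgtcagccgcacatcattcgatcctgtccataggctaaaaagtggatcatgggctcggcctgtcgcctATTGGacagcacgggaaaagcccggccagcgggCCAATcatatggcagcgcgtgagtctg
Nsdhl: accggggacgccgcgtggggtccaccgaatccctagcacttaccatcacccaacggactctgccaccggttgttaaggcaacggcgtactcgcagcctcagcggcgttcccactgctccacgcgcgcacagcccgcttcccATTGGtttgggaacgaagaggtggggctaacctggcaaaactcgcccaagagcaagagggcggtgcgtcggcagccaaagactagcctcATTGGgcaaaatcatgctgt
Insig1: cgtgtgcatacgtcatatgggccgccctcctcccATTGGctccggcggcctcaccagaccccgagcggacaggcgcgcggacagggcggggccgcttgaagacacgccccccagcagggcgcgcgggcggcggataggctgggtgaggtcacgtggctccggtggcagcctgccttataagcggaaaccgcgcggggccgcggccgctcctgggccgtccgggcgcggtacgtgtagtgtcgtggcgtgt
Abca1: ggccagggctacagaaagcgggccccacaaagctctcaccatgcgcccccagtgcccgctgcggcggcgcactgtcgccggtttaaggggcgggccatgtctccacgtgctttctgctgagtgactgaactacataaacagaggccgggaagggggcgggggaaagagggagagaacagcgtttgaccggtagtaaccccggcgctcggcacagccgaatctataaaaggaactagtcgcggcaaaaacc
Hmgcs1: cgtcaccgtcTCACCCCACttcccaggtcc
Mvd held NF-Y boxes 60 and 27 bases before its start and Nsdhl 109 and 20 bases before its start, whereas the box of Insig1 lay 216 bases away and Abca1 had none. An NF-Y box was found in 21 of the 34 member promoters (61.8%), compared with 33.8% of 32851 promoters and 34.8% of the 12270 promoters of tested genes. Counting a member if any of its promoters held the box, it was present for 15 of the 15 lower members with a promoter. By this count it was present for 4 of 6 members that were not called and for 1 of 3 higher members, Insig2. It was present for 0 of 2 members without a row of their name, Acat2 and Acaca. Rows described as these 2 had log2 fold changes of -0.98 and -2.22 (Acat2) and -0.73 (Acaca). A share of all genes by this count was not computed. Dhcr7, Pmvk, Srebf1 and Insig2 also had promoters without the box, whereas the shares above count each promoter. The sterol regulatory element, spelled as above, occurred in 1 member promoter, 137 bases before the start of Hmgcs1, and in 1.05% of all promoters. The GC box GGGCGG was in 70.6% of member promoters and 57.5% of those of tested genes, and the E-box CACGTG in 17.6% and 8.15%. The E-box reads the same on both strands, no matches of different motifs overlap in the promoters shown, and a match describes the letters alone.

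The regulators moved in opposite directions. Srebf2, which encodes SREBP-2, had 978, 1012 and 727 CPM in Pdk4fl/fl and 289, 405 and 386 CPM in Pdk4SMKO libraries. Its level was 2.52-fold lower without overlap (log2 fold change -1.33, standard error 0.18, adjusted p = 5.21e-05). Srebf1, which encodes SREBP-1, had 199, 216 and 150 CPM and 134, 173 and 153 CPM, so that the genotypes overlapped. Its log2 fold change was -0.29 (95% interval -0.61 to 0.02, adjusted p = 0.111) and turned to 0.30 with library size alone, and its span overlaps that of Rai1 by 109 bases on the other strand. Within a library, Srebf1 stood at 0.184 ± 0.0046 of Srebf2 in Pdk4fl/fl and 0.380 ± 0.030 in Pdk4SMKO cells (counts per kilobase, SD, n = 3).

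Scap, the escort of the SREBP proteins, had 55.2, 56.1 and 41.2 CPM in Pdk4fl/fl and 113, 107 and 86.5 CPM in Pdk4SMKO libraries. It was 2.02-fold higher without overlap (log2 fold change 1.01, standard error 0.16, adjusted p = 1.96e-04), at the limit of the rule. The paired retention factors changed places. Insig1, itself a classical SREBP target, fell from 275, 229 and 293 CPM to 39.2, 53.7 and 66.7 CPM (log2 fold change -2.32, standard error 0.19, adjusted p = 1.98e-06). Insig2, which is not driven by SREBP in the same way, rose from 23.1, 23.7 and 28.8 CPM to 56.0, 73.6 and 82.7 CPM (log2 fold change 1.49, standard error 0.17, adjusted p = 1.81e-05). Insig1 was at 12.2, 9.86 and 10.4 times Insig2 per kilobase in Pdk4fl/fl libraries and at 0.716, 0.747 and 0.825 times in Pdk4SMKO libraries, a 14.2-fold lower ratio that does not depend on how libraries are scaled.

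**Figure D2:**
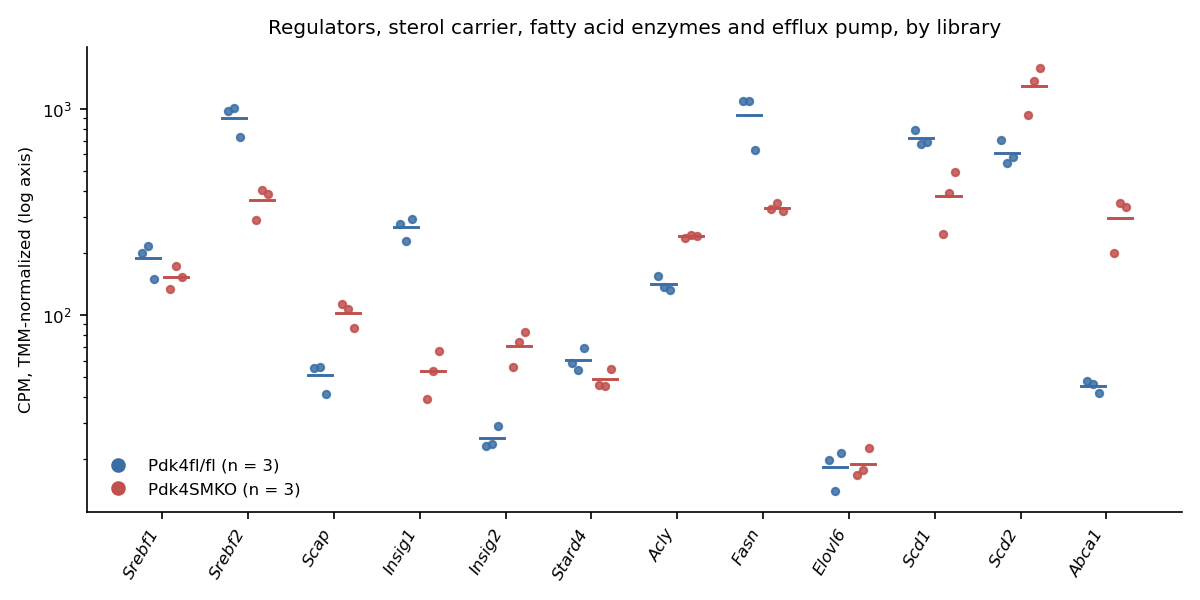
Points are libraries and bars genotype means, with CPM on a log y axis, for the regulators, the sterol carrier Stard4, the fatty acid genes and Abca1 (3 libraries per genotype). Insig1 and Insig2 exchange order between the genotypes, Scd1 and Scd2 do so as well, and the Pdk4SMKO libraries of Abca1 lie at 199.9 to 349 CPM above 41.8 to 47.7 CPM in Pdk4fl/fl.

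In the mevalonate arm, 6 of 7 tested genes were lower, with a median log2 fold change of -1.77. Mvd (chromosome 8, 130155835 to 130185654), the decarboxylase that makes isopentenyl diphosphate, had the lowest log2 fold change of the 30 tested members. It had 118, 132 and 133 CPM in Pdk4fl/fl and 13.8, 15.8 and 14.1 CPM in Pdk4SMKO libraries. This was 8.78-fold lower (log2 fold change -3.13, standard error 0.13, adjusted p = 2.62e-08), and the spread within each genotype was small beside the difference. Idi1, the isomerase of the next step, had 30.5, 30.9 and 43.0 CPM and 4.96, 5.08 and 7.26 CPM (log2 fold change -2.59, standard error 0.21, adjusted p = 1.77e-06). The kinases before Mvd were lower by less. Pmvk, phosphomevalonate kinase, went from 32.8 ± 6.25 to 8.22 ± 0.352 CPM (log2 fold change -1.99), and Mvk, mevalonate kinase, from 59.7 ± 8.10 to 22.3 ± 2.37 CPM (log2 fold change -1.42). Neither gene overlapped between the genotypes.

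Hmgcs1, the cytosolic HMG-CoA synthase that opens the arm, had 189, 152 and 193 CPM in Pdk4fl/fl and 69.6, 82.5 and 110 CPM in Pdk4SMKO libraries. It was called (log2 fold change -1.03, standard error 0.18, adjusted p = 3.44e-04) at the limit of the rule, and the call was lost under 8 alternatives, with values of -0.98 to -0.42. Fdps, which makes farnesyl diphosphate, had few counts (109, 97 and 94 against 32, 39 and 49) and was called (log2 fold change -1.77, standard error 0.29, adjusted p = 2.27e-04). Rows described as pseudogenes of Fdps can share its reads, and its value is uncertain. Ggps1, which extends farnesyl to geranylgeranyl diphosphate, was the exception of this arm. It had 21.1, 23.9 and 32.7 CPM against 28.2, 30.6 and 33.3 CPM, with overlap, and a log2 fold change of 0.25 (95% interval -0.10 to 0.59, adjusted p = 0.219). The span of Ggps1 overlaps 170 bases of Arid4b on the other strand, a gene with 11426 counts in all and a log2 fold change of -0.42. Acat2, the thiolase before Hmgcs1, carried no row of that name. A pair of neighbouring rows were described as Acat2, with log2 fold changes of -0.98 (adjusted p = 1.31e-04, row named Acat3) and -2.22 (adjusted p = 6.58e-06), and as the gene copies are near-identical their counts cannot be assigned with certainty.

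In the squalene and sterol arm, 8 of 11 genes were lower and 1 was higher, with a median log2 fold change of -1.42. Fdft1, the squalene synthase that commits farnesyl diphosphate to sterols, had 372, 385 and 500.3 CPM in Pdk4fl/fl and 48.3, 70.3 and 79.7 CPM in Pdk4SMKO libraries (6.34-fold lower, log2 fold change -2.66, standard error 0.20, adjusted p = 9.95e-07). The span of Fdft1 overlaps 767 bases of Ctsb on the other strand, a gene with 239894 counts over the 6 libraries and a log2 fold change of -1.40, and whether the counting used strand is not given in the sources used here. Sqle, squalene epoxidase, is the next enzyme and a known rate-limiting step. Sqle (chromosome 15, 60790542 to 60809424 in the deposited table) went the other way, from 56.4, 49.3 and 43.5 CPM to 122, 146 and 174 CPM (2.97-fold higher, log2 fold change 1.57, standard error 0.16, adjusted p = 8.15e-06). The call for Sqle was kept under each of the 13 alternatives with a refit. Lss, which closes the ring to lanosterol, was lower again, at 90.3, 81.2 and 81.2 CPM against 29.9, 39.8 and 40.9 CPM (log2 fold change -1.19, standard error 0.15, adjusted p = 3.06e-05).

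Because Sqle is flanked by enzymes that fell, its share of the pathway was read within each library. Counts of Sqle per kilobase were 0.078, 0.066 and 0.045 times those of Fdft1 in Pdk4fl/fl and 1.31, 1.07 and 1.13 times in Pdk4SMKO libraries, an 18.5-fold higher ratio. Against Lss the ratio was 1.15 ± 0.091 and 7.79 ± 0.593 (SD, n = 3). Summed over the 18 enzymes of both sterol arms, the level was 711 ± 91.0 CPM per kilobase in Pdk4fl/fl and 213 ± 32.1 in Pdk4SMKO cells (SD, n = 3). Sqle made up 1.53%, 1.36% and 0.962% of this sum in Pdk4fl/fl libraries and 12.0%, 12.6% and 12.7% in Pdk4SMKO libraries. The ratios and the share do not overlap between the genotypes, and as ratios within a library they are free of the scaling. Sqle was higher and Fdft1, Lss and the sum lower, each without overlap. The lack of overlap in the ratios and the share follows from this and adds no support.

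**Figure D3:**
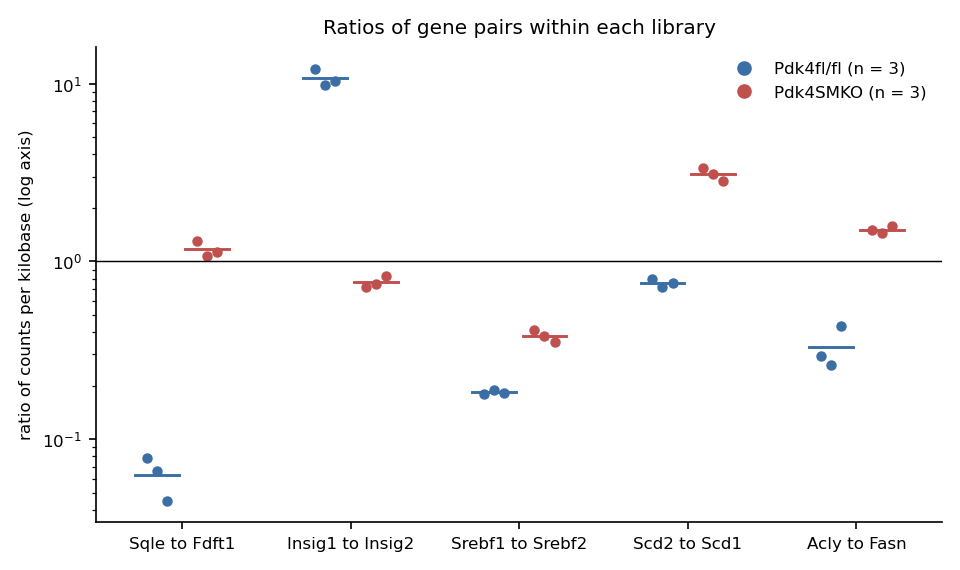
Points are the ratio of 2 genes' counts per kilobase within a library, on a log y axis, bars are genotype means (3 libraries each), and the line marks equal levels. Sqle to Fdft1 rises from 0.045 to 0.078 in Pdk4fl/fl to 1.07 to 1.31 in Pdk4SMKO libraries, and Insig1 to Insig2 falls from 9.86 to 12.2 down to 0.716 to 0.825.

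The enzymes that trim and rearrange lanosterol were mostly lower together. Cyp51, the lanosterol 14-alpha-demethylase, had 482, 454 and 576 CPM in Pdk4fl/fl and 77.1, 91.7 and 116 CPM in Pdk4SMKO libraries (log2 fold change -2.41, standard error 0.17, adjusted p = 6.83e-07). Its span overlaps 166 bases of Akap9 on the other strand, a gene with a log2 fold change of 0.20. The enzymes that remove the C4 methyl groups followed. Msmo1, the methyl oxidase, had 348, 324 and 421 CPM against 73.5, 76.5 and 100.5 CPM (log2 fold change -2.13, standard error 0.16, adjusted p = 1.01e-06). Nsdhl, the decarboxylating dehydrogenase, had 164, 165 and 217 CPM against 19.2, 26.8 and 34.0 CPM (log2 fold change -2.77, standard error 0.21, adjusted p = 1.10e-06). Hsd17b7, the keto reductase, had 87.6 ± 11.3 and 28.0 ± 4.08 CPM (SD, n = 3, log2 fold change -1.65, standard error 0.15, adjusted p = 3.88e-06). The libraries of the genotypes were apart for each of these 4 genes.

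The last steps were mixed. Sc5d, the lathosterol desaturase, went from 127 ± 15.3 to 47.7 ± 3.59 CPM (log2 fold change -1.42, standard error 0.13), and Dhcr7, the final reductase, from 16.1 ± 0.554 to 6.80 ± 0.348 CPM (log2 fold change -1.24, standard error 0.16). Both were lower without overlap. Ebp, the sterol isomerase before Sc5d, had 32.0, 37.7 and 49.6 CPM against 36.7, 42.5 and 47.3 CPM. The genotypes overlapped and the log2 fold change was 0.09 (95% interval -0.26 to 0.43, adjusted p = 0.660). Tm7sf2, a sterol C14 reductase, had 109, 136 and 134 counts against 113, 135 and 141 counts, which correspond to 7.27, 7.47 and 10.1 CPM against 4.96, 6.72 and 6.92 CPM, without overlap. Its log2 fold change was -0.42 (95% interval -0.86 to 0.03, adjusted p = 0.117) with TMM factors and 0.19 with library size alone, and it shares 532 bases with Vps51 on the same strand.

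Within a genotype the order of the libraries was often the same among sterol enzymes. Of the 18 enzymes, 14 were highest in Pdk4fl/fl replicate 3 among the Pdk4fl/fl libraries, as were 41.1% of all genes tested. Among the Pdk4SMKO libraries, 15 were lowest in replicate 1 and 16 were highest in replicate 3, beside 39.0% and 32.3% of all genes tested. These counts are a description without a test. Pdk4SMKO replicate 1 was also the library with the most mesothelial and macrophage marker counts, and the part of this in the spread was not tested. Without it, 16 members were lower and 4 higher. By level per kilobase, Fdft1 (146), Cyp51 (114) and Mvd (72.5 CPM per kilobase) led the sterol enzymes in Pdk4fl/fl cells, whereas Hmgcs1 (27.0), Sqle (26.6) and Fdft1 (23.1 CPM per kilobase) led in Pdk4SMKO cells, where they differed by no more than their spread. Over the tested members, the SD was between 3.44% (Dhcr7) and 28.2% (Fasn) of the mean in Pdk4fl/fl and between 1.86% (Acly) and 32.9% (Scd1) in Pdk4SMKO cells.

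**Figure D4:**
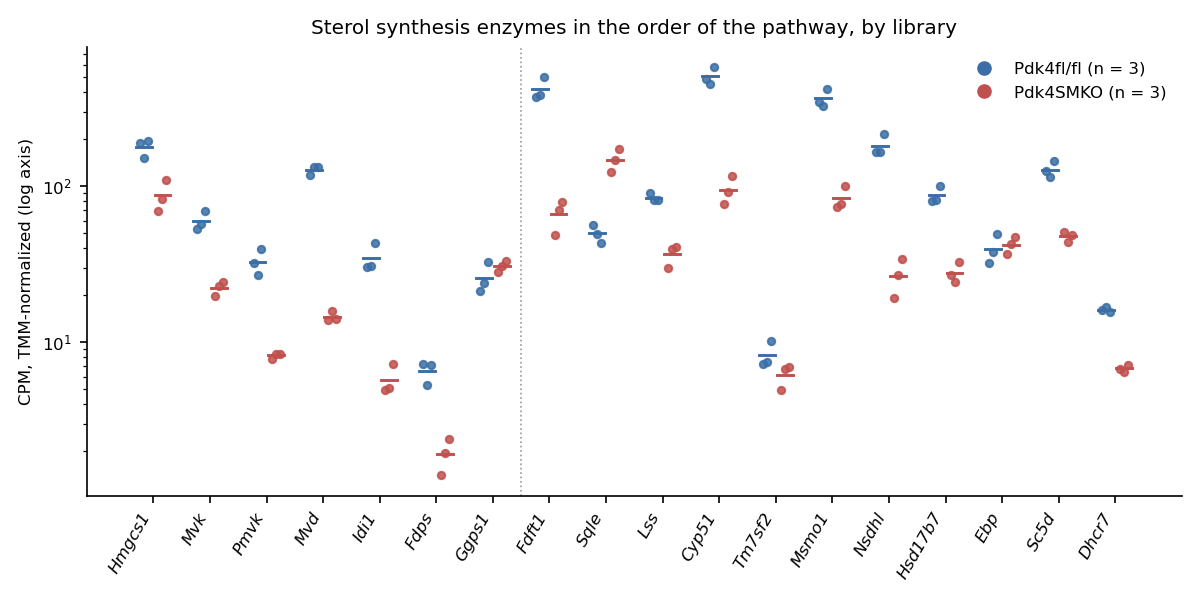
Points are libraries and bars genotype means, with CPM on a log y axis, for the 18 enzymes from Hmgcs1 to Dhcr7 in pathway order, with a dotted line before Fdft1 where the sterol arm begins (3 libraries per genotype). The Pdk4SMKO points lie below the Pdk4fl/fl points for 15 enzymes, Ggps1 and Ebp overlap, and Sqle lies above at 122 to 174 against 43.5 to 56.4 CPM.

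Stard4, which moves cholesterol between membranes inside the cell, had 58.7, 54.1 and 69.3 CPM against 45.9, 45.2 and 54.8 CPM. The genotypes overlapped, and the log2 fold change was -0.32 (95% interval -0.59 to -0.04, adjusted p = 0.058) and 0.29 with library size alone.

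The fatty acid genes showed no common direction, with 1 lower, 1 higher and 3 not called of 5 tested. Fasn, the fatty acid synthase, had 1087, 1089 and 630.4 CPM in Pdk4fl/fl and 326, 347 and 318 CPM in Pdk4SMKO libraries. It was 2.83-fold lower (log2 fold change -1.50, standard error 0.20, adjusted p = 5.71e-05), with Pdk4fl/fl replicate 3 well below its group but above each Pdk4SMKO library. Acly, which makes the cytosolic acetyl-CoA that feeds both pathways, had 154, 137 and 132 CPM against 235, 244 and 241 CPM. This was 1.70-fold higher without overlap (log2 fold change 0.77, standard error 0.11, adjusted p = 1.10e-04), under the limit on the fold. Acly stood at 0.294, 0.261 and 0.434 times Fasn per kilobase in Pdk4fl/fl and at 1.49, 1.45 and 1.58 times in Pdk4SMKO libraries. Acaca, the acetyl-CoA carboxylase between them, was found by its description in a row without a name. It had 182, 164 and 132 CPM against 90.0, 101 and 97.7 CPM (log2 fold change -0.73, standard error 0.14, adjusted p = 6.93e-04), again under the limit on the fold.

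The stearoyl-CoA desaturases, which introduce the double bond of oleate, parted. Scd1 had 790.3, 674 and 688 CPM in Pdk4fl/fl and 246, 391 and 493 CPM in Pdk4SMKO libraries, and it passed the p but not the fold (log2 fold change -0.93, standard error 0.22, adjusted p = 0.00275). Scd2, the isoform typical of tissues outside the liver, had 708, 544 and 584 CPM against 931, 1367 and 1574 CPM and was higher (log2 fold change 1.08, standard error 0.20, adjusted p = 5.03e-04). Pdk4SMKO replicate 3 decided both calls, since without it Scd1 stood at -1.16 and was called, and Scd2 at 0.92 and was not. The ratio of Scd2 to Scd1 per kilobase was 0.794, 0.716 and 0.752 in Pdk4fl/fl and 3.35, 3.10 and 2.83 in Pdk4SMKO libraries. As both genes were apart in opposite directions, the ratio was apart by construction. Elovl6, which elongates palmitate, had 18.3 ± 3.82 and 19.0 ± 3.13 CPM (SD, n = 3) with a log2 fold change of 0.05 (95% interval -0.33 to 0.44, adjusted p = 0.811). Of the markers of adipocytes, which also synthesize fatty acids, Adipoq, Plin1, Cidec and Lep had at most 10 counts in any library, Fabp4 and Lipe were tested and not called, and the 6 summed to 14.7 to 23.5 CPM in Pdk4fl/fl and 21.1 to 30.7 CPM in Pdk4SMKO libraries.

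Of the efflux pumps, Abca1 (chromosome 4, 53561151 to 53692448), which loads cholesterol onto apolipoprotein A-I, had the highest log2 fold change of the 30 tested members. It had 47.7, 46.0 and 41.8 CPM in Pdk4fl/fl and 199.9, 349 and 335 CPM in Pdk4SMKO libraries (6.53-fold higher, log2 fold change 2.71, standard error 0.21, adjusted p = 1.04e-06). Set against Srebf2 per kilobase, Abca1 was at 0.0243 ± 0.0030 in Pdk4fl/fl and 0.389 ± 0.048 in Pdk4SMKO cells (SD, n = 3), 15.98-fold higher. Abcg1, which exports cholesterol to larger lipoproteins and is abundant in macrophages, had 0 counts in each Pdk4fl/fl library and 41, 8 and 10 in the Pdk4SMKO libraries. It was removed by the filter of the fit reported here. It was tested in 5 alternatives, namely without a filter and without Pdk4fl/fl replicate 1, 2 or 3 or Pdk4SMKO replicate 2. Each called it higher, the only direction open to a gene with 0 counts in Pdk4fl/fl, so these calls add no support. Without Pdk4SMKO replicate 1 or 3 it was again not tested. Taking 3 counts per library as the floor, it was at least 4.55-fold higher, and at least 2.25-fold higher without Pdk4SMKO replicate 1. That replicate also had the most counts of C1qa (125, against 58 and 35), Adgre1 and Tyrobp, and the part of these cells in the counts of Abcg1 was not tested.

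**Figure D5:**
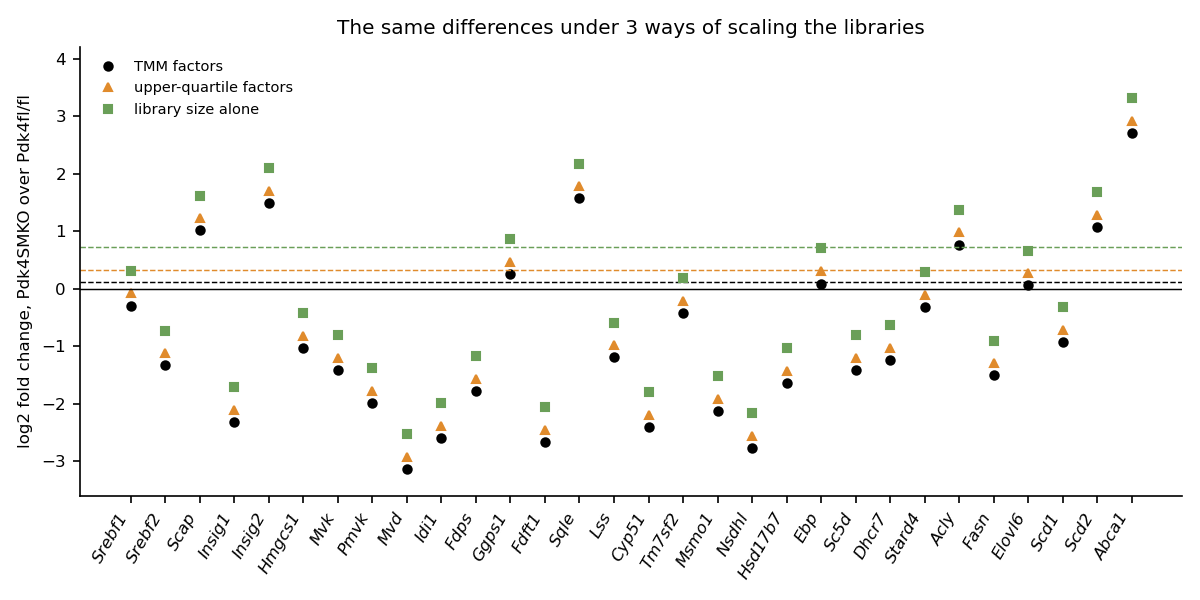
Points are the log2 fold change of each tested member (Pdk4SMKO over Pdk4fl/fl, y axis) with TMM factors, upper-quartile factors and library size alone, and the dashed lines are the medians of all genes under each, 0.12, 0.33 and 0.72. The scaling shifts all members in the same direction, and it turns the sign of Srebf1, Tm7sf2 and Stard4.

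Among 45 other genes of sterol and fatty acid metabolism, 43 could be tested, of which 8 were lower, 10 higher and 25 not called, with a median log2 fold change of -0.03. These are 18.6% lower and 23.3% higher, where 26.5% and 32.8% of all genes tested were. With library size alone 5 were lower and 15 higher. Of 13 genes of sterol synthesis and its control, 2 were lower and 5 higher, of 11 of uptake, transport and storage, 3 and 4, and of 11 of fatty acid synthesis, elongation and desaturation, 3 and 1. Of 8 genes of the isoprenoid branches, which did not reach the limit on the fold, 4 were lower and 2 higher by the p alone. By that rule 37.1% of all genes tested were lower and 42.0% higher. Lbr, the other sterol C14 reductase, had 33.9 ± 4.44 and 35.0 ± 2.91 CPM (SD, n = 3) and was not called (log2 fold change 0.04). The erlin proteins, which sit in the endoplasmic reticulum membrane, parted. Erlin1 fell from 162 ± 8.59 to 34.2 ± 1.91 CPM (log2 fold change -2.24) and Erlin2 rose from 9.23 ± 0.739 to 69.8 ± 5.69 CPM (log2 fold change 2.92).

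The same list holds makers of oxysterols, the liver X receptors and the proteases that release SREBP, which were not tested as a group. Ch25h, which makes 25-hydroxycholesterol, had 19, 27 and 30 counts in Pdk4fl/fl and 337, 364 and 243 in Pdk4SMKO libraries (log2 fold change 3.17, standard error 0.28, adjusted p = 2.58e-06). Cyp27a1, the sterol 27-hydroxylase, was higher at a low level (0.657 ± 0.180 and 2.13 ± 0.819 CPM, log2 fold change 1.68). Nr1h3, which encodes LXR-alpha, rose from 2.17 ± 0.387 to 13.1 ± 3.34 CPM (log2 fold change 2.59, adjusted p = 9.48e-06), whereas Nr1h2, which encodes LXR-beta, passed the p alone in the other direction (log2 fold change -0.71). Of these proteases, Mbtps1 (0.52) and Mbtps2 (0.85) passed the p alone and were not called. Of the other genes named by the rule, Acacb, the mitochondrial acetyl-CoA carboxylase, was lower at 19.1 ± 7.96 and 2.77 ± 0.406 CPM (log2 fold change -2.78). Mlxipl, which encodes the glucose-responsive factor ChREBP, had 1, 0 and 1 counts in Pdk4fl/fl and 16, 21 and 26 in Pdk4SMKO libraries, which is at least 5.11-fold higher.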

How the data were processed

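RNA was sequenced from 3 Pdk4fl/fl and 3 Pdk4SMKO MASMC libraries. The table that the authors deposited holds raw, integer read counts for each gene, with a column per library, of which 0 went unused. Per the labels the build is GRCm39, whereas the gene identifiers are those of the Ensembl annotation of the C57BL/6NJ strain, and gene coordinates are printed as deposited. The labels name a SMARTER kit and the methods an NEBNext Ultra kit. The aligner, the counting program and the use of strand are not given in the sources used here.

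Groups follow the genotype labels. In R 4.3.3, genes were filtered with filterByExpr (minimum count 10), scaled by TMM and tested with edgeR 4.0.16 (quasi-likelihood test, genotype alone), and p-values were adjusted by Benjamini-Hochberg over the 14085 genes tested. Calls required a 2-fold difference or more and an adjusted p below 0.05, after the study's methods, which used DESeq2, the same limits on p and fold, and Benjamini-Hochberg correction, without stating whether the limit applies to the corrected p. The code was tested on simulated counts. CPM are TMM-scaled, and standard errors and intervals (95%) are on the log2 scale. The intervals rest on the standard error and a normal quantile, so that with 3 libraries per genotype they are too narrow. With 3 libraries against 3, an exact permutation test cannot go below p = 0.1, and none was used. Alternatives were DESeq2 1.42.0, RLE, upper-quartile and library-size scaling, no filter, at least 10 counts in every library, no limit on the fold, the replicate number as a block, and each library left out in turn.

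The members and lists were chosen with earlier results of these data known. All members are named. Of the other pathway genes, the rule names those of sterol synthesis and its control and the 2 lowest and 2 highest called, of which some are not reported here. A count of 3 per library was taken as the floor. Promoters came from RefSeq (GRCm38.p6), used for sequence alone. Protein sequences were not used here.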

Additional observations from a re-analysis of the deposited data

How the results depend on the processing

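Over the 30 tested members and the 13 refitted alternatives, 361 values kept their direction and their side of the threshold, 21 lost the call, 2 gained it and 6 changed sign. Scaling by library size alone left 10 lower members of 17, with 6 higher in place of 5. Of the other pathway genes, 8 were lower, against 5 with library size alone or upper-quartile factors and 18 with no limit on the fold. With no limit on the fold, 37.1% of all genes tested were lower. With each library left out in turn, 16 to 18 members were lower and 4 to 6 higher. Abcg1 is included where tested, and could only be called higher. Of the other genes, 7 to 8 were lower and 9 to 11 higher. The sign turned, for members that were not called, in Srebf1 (0.30), Tm7sf2 (0.19) and Stard4 (0.29) with library size alone, and with libraries left out in Ebp (-0.045 to 0.26, below 0 without Pdk4fl/fl replicate 1) and Elovl6 (-0.10 to 0.16, below 0 without Pdk4fl/fl replicate 2 or Pdk4SMKO replicate 3). Scap lost its call with RLE factors (0.98), DESeq2 (0.98) and without Pdk4fl/fl replicate 3 (0.87), Pdk4SMKO replicate 1 (0.94) or replicate 2 (0.98). Hmgcs1 lost it with upper-quartile factors (-0.82), library size alone (-0.42), both other filters on low counts (-0.98 and -0.93) and without Pdk4fl/fl replicate 1 or 3 or Pdk4SMKO replicate 1 or 2 (-0.98 to -0.88). Lss lost it with upper-quartile factors (-0.98) and library size alone (-0.59), and Srebf2, Mvk, Sc5d, Dhcr7 and Fasn with library size alone. The cause was not tested. With the replicate block, 17 members were lower and 5 higher, and no member's call changed. Deviations of same-numbered libraries correlated at 0.04, 0.06 and 0.18, so the numbers were not taken as pairs. Depth limits Abcg1 and Fdps. The p-values cover the spread between libraries that the study calls biological replicates, for which the labels do not state separate mice.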
